A study of Homo sapiens with 4 samples.

Results

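CHP134 cells that received doxazosin together with 13-cis-retinoic acid (13cRA, isotretinoin) were compared with CHP134 cells that received 13cRA alone. CHP134 is an established human neuroblastoma line with an amplified MYCN gene. The cells were chosen by their treatment in the deposited count table, and they number 662 of the 1287 cells in the series: 307 with both drugs and 355 with 13cRA. The 4 samples of the series are DMSO 0.04%, 13cRA at 5 µM, doxazosin at 10 µM and both drugs together, each for 24 h and each a single culture of the same line. The labels do not state the solvent content of the drug-treated cultures. After cells with fewer than 500 detected genes or with more than 25% of counts from mitochondrially encoded genes were left out, 287 cells with both drugs and 318 with 13cRA remained. Each treatment was sampled once, so no test of the drug effect was possible. A difference is given as a fold or a log2 difference. Intervals of levels cover counting error only, and intervals of shares of cells cover the sampling of cells within 1 culture.

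Retinoic acid binds nuclear retinoic acid receptors (RAR), which pair with retinoid X receptors (RXR) at response elements and switch on their own gene RARB, retinoid-binding proteins and HOX genes. In neuroblastoma cells this programme is accompanied by neurite growth and neuronal gene expression, and 13cRA is given as maintenance therapy in high-risk disease. Doxazosin is a quinazoline that blocks alpha-1 adrenergic receptors, which couple through Gq proteins to phospholipase C, and it has reported actions outside these receptors. The question that the combination addresses is what doxazosin adds in cells that also receive the retinoid.

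The 13cRA library stood apart from the other 3 in its depth and composition. Its kept cells had a median of 59200.5 counts, against 221558 with both drugs, 122615 with DMSO and 171793 with doxazosin. Every cell was therefore thinned at random to 34000 counts, which kept 249 of the 13cRA cells and 270 of the cells with both drugs, and left out 69 and 17 shallower ones. Even at this equal depth the median 13cRA cell had 3895 detected genes, whereas medians in the other libraries lay between 4679.5 and 4771. The median share of mitochondrially encoded counts in the thinned cells was 13.5% with 13cRA and 10.09% with both drugs. Levels below are counts per 1000000 counts (CPM) of the thinned counts summed per library, and they are not divided by gene length. Of 12 neuroblast markers 9 reached a mean of 10 CPM. The 12 together, the amplified MYCN included, summed to 2941 CPM with 13cRA and 2611 CPM with both drugs. The 7 leukocyte, 6 epithelial and 7 adrenal cortex markers summed to at most 1.89 CPM in either library. Schwann cell markers summed to 17.4 CPM with 13cRA and 13.6 CPM with both drugs, fibroblast markers to 67.8 and 75.5 CPM, mostly THY1, and endothelial markers to 22.8 and 12.3 CPM, mostly CLDN5.

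With both drugs, retinoid-induced genes such as RARB and ENPP2 were still far above their DMSO level. Compared with 13cRA alone, all measured immediate early genes and mitochondrially encoded mRNAs were lower, and most tubulin, glycolysis and nuclear respiratory chain genes were higher. Among 7853 genes with a mean of at least 10 CPM over the 4 libraries, 138 (1.76%) were at least 2-fold higher on the log2(CPM + 1) scale with both drugs than with 13cRA, and 163 (2.08%) at least 2-fold lower. The median difference of all genes was 0.03 log2, with 4095 genes higher and 3758 lower. Doxazosin over DMSO, which shares no library with this comparison, put 13 genes (0.166%) past 2-fold higher and 11 (0.14%) past 2-fold lower. In 80 of the 138 higher genes only the 13cRA library was outermost, lying below the other 3, and in 6 only the library with both drugs was outermost. Among the 163 lower genes these counts were 81 and 3. For the remaining 52 higher and 79 lower genes the libraries with 13cRA and with both drugs were the 2 extremes. The split depended on the scaling: with TMM factors the median of all genes was 0.17 log2, and 270 genes were past 2-fold higher against 91 lower, while totals without mitochondrially encoded genes gave a median of -0.03 log2, with 113 higher and 232 lower. DESeq2 size factors gave 220 higher and 107 lower, and leaving out each gene's highest 5% of cells 422 higher and 130 lower. Directions of single genes near 0 are therefore relative to these medians. The median absolute difference was 0.32 log2 between both drugs and 13cRA, the same size as between 13cRA and DMSO (0.32), and 0.20 between both drugs and DMSO.

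The core retinoid response was present in both 13cRA-containing libraries. RARB, the retinoic acid receptor beta gene and a direct target of its own pathway, stood at 1.26 CPM with DMSO, 19.5 with 13cRA, 2.50 with doxazosin and 23.6 with both drugs. Both retinoid-treated libraries were far above the other 2, and the 95% counting intervals of the pair, 16.6 to 22.7 CPM with 13cRA and 20.6 to 27 with both drugs, overlapped. Among thinned cells, RARB counts were found in 18.1% (13.5 to 23.4) with 13cRA and 24.8% (19.8 to 30.4) with both drugs, and before thinning in 19.8% and 31.4%. RARB lies at chr3:25174332-25597932, plus strand, in the GENCODE 29 annotation of GRCh38. Its RefSeq promoter window, from 250 bases before to 50 bases after a transcript start, is shown because it holds the retinoic acid response element, a pair of direct repeats spaced by 5 bases (DR5), in capitals. The window is at chr3:25428013-25428312 on the plus strand (GRCh38.p14), and the element runs from base -53 to base -37 relative to the start.
RARB promoter: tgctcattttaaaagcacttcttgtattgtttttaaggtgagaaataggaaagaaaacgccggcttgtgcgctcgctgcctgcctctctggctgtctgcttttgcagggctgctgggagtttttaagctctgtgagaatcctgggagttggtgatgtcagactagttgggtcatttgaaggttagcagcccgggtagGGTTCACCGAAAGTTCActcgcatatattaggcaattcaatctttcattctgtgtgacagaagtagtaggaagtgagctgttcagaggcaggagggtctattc
The DR5 element, searched on both strands, was found in 31 of 35116 RefSeq promoter windows (0.0883%). Of the 29 listed retinoid genes with a window 2 had it in at least 1 window, RARB (1 of its 4 windows) and CYP26A1 (1 of 2). The count of genes and the share of windows are unlike units. The match is a description of the sequence and not a measurement of binding.

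Other retinoid-responsive genes had the same order of libraries as groups. CRABP2, which carries retinoic acid to its receptors, measured 15.8 CPM with DMSO, 34.1 with 13cRA, 19.9 with doxazosin and 38.8 with both drugs. The homeobox gene HOXC4, of the HOX list, was at 12.1 CPM with DMSO, 30.8 with 13cRA, 11 with doxazosin and 30.8 with both drugs. Both genes were higher in the 2 retinoid-treated libraries than in the others, and neither differed by 2-fold between 13cRA and both drugs. STRA6, a retinol transporter gene, was at 10.9 CPM with DMSO, 20 with 13cRA, 7.26 with doxazosin and 21.8 with both drugs and NAV2, a neuron navigator gene known as retinoid-inducible, at 51.5 CPM with DMSO, 112 with 13cRA, 55.3 with doxazosin and 114 with both drugs; these 2 were chosen after their values were seen. Of 34 listed retinoid genes 13 were measured, 7 higher and 6 lower with both drugs than with 13cRA, with none past 2-fold and a median of 0.03 log2. Receptor genes outside this count, with means below 10 CPM, were RARA (11.9 CPM with 13cRA against 7.63 with both drugs) and RARG (12.2 CPM with 13cRA against 14.2 with both drugs). Among the measured ones RXRA (20.9 CPM with 13cRA against 15.8 with both drugs) was lower in the combination and RXRB (7.56 CPM with 13cRA against 12.4 with both drugs) was higher. CYP26A1, the retinoic acid hydroxylase whose promoter holds a DR5 element, had no count in any library, which allows up to 0.354 CPM with 13cRA and 0.327 CPM with both drugs. The retinaldehyde reductase gene DHRS3 had 4.61 CPM with 13cRA against 2.61 with both drugs, below the level at which genes were counted as measured. Per cell, 64.8% (95% interval 58.8 to 70.5) of thinned cells with both drugs lay above the 13cRA median of the list's mean level, and 75.6% without thinning. That share was above 50% for 28 of the 33 gene lists, so it is not particular to the retinoid list.

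ENPP2, SCG2, SLIT2, NEFM and RGS16, 5 secreted, neuronal or signalling genes known from earlier results to be high with 13cRA, were lower with both drugs than with 13cRA and above DMSO. ENPP2, which encodes the lysophospholipase D autotaxin, was at 1.88 CPM with DMSO, 451 with 13cRA, 2.00 with doxazosin and 339 with both drugs. ENPP2 was near absent without the retinoid, and the 13cRA level exceeded the combination 1.33-fold. Among thinned cells ENPP2 was counted in 66.3% (60 to 72.1) with 13cRA and 72.6% (66.9 to 77.8) with both drugs (68.9% and 83.6% unthinned), while the median count in positive cells was 19 with 13cRA and 11 with both drugs. SLIT2, an axon guidance ligand, stood at 7.89 CPM with DMSO, 148 with 13cRA, 6.13 with doxazosin and 94.9 with both drugs. The granin SCG2 was at 31.7 CPM with DMSO, 216 with 13cRA, 40.8 with doxazosin and 168 with both drugs, and the medium neurofilament NEFM at 159 CPM with DMSO, 426 with 13cRA, 149.8 with doxazosin and 243 with both drugs. In each of these genes the 13cRA library was the highest and the combination the second, 1.56-fold, 1.28-fold and 1.75-fold below it. RGS16, a GTPase activator for Gi and Gq alpha subunits, measured 0.986 CPM with DMSO, 118 with 13cRA, 2.88 with doxazosin and 58.2 with both drugs, a 2.02-fold difference between the retinoid libraries. These reductions depended on which cells were compared. Among cells with 4000 to 4600 detected genes at equal depth, 92 with 13cRA and 79 with both drugs, the log2 difference was 0.29 for ENPP2, 0.34 for SCG2, 0.16 for SLIT2, 0.15 for RGS16 and -0.11 for NEFM, against -0.41, -0.36, -0.63, -1.002 and -0.80 over all thinned cells. This window, whose cells are called matched below, lay above the 13cRA median of 3895 genes and below the median of 4705 with both drugs. The quartiles were 3610 to 4128 with 13cRA and 4467.5 to 4900.75 with both drugs. Matched cells are therefore gene-rich cells of the 13cRA library and gene-poor cells of the combination, and do not represent either library. The part of detected genes per cell in these differences was not tested.

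**Figure D1:**
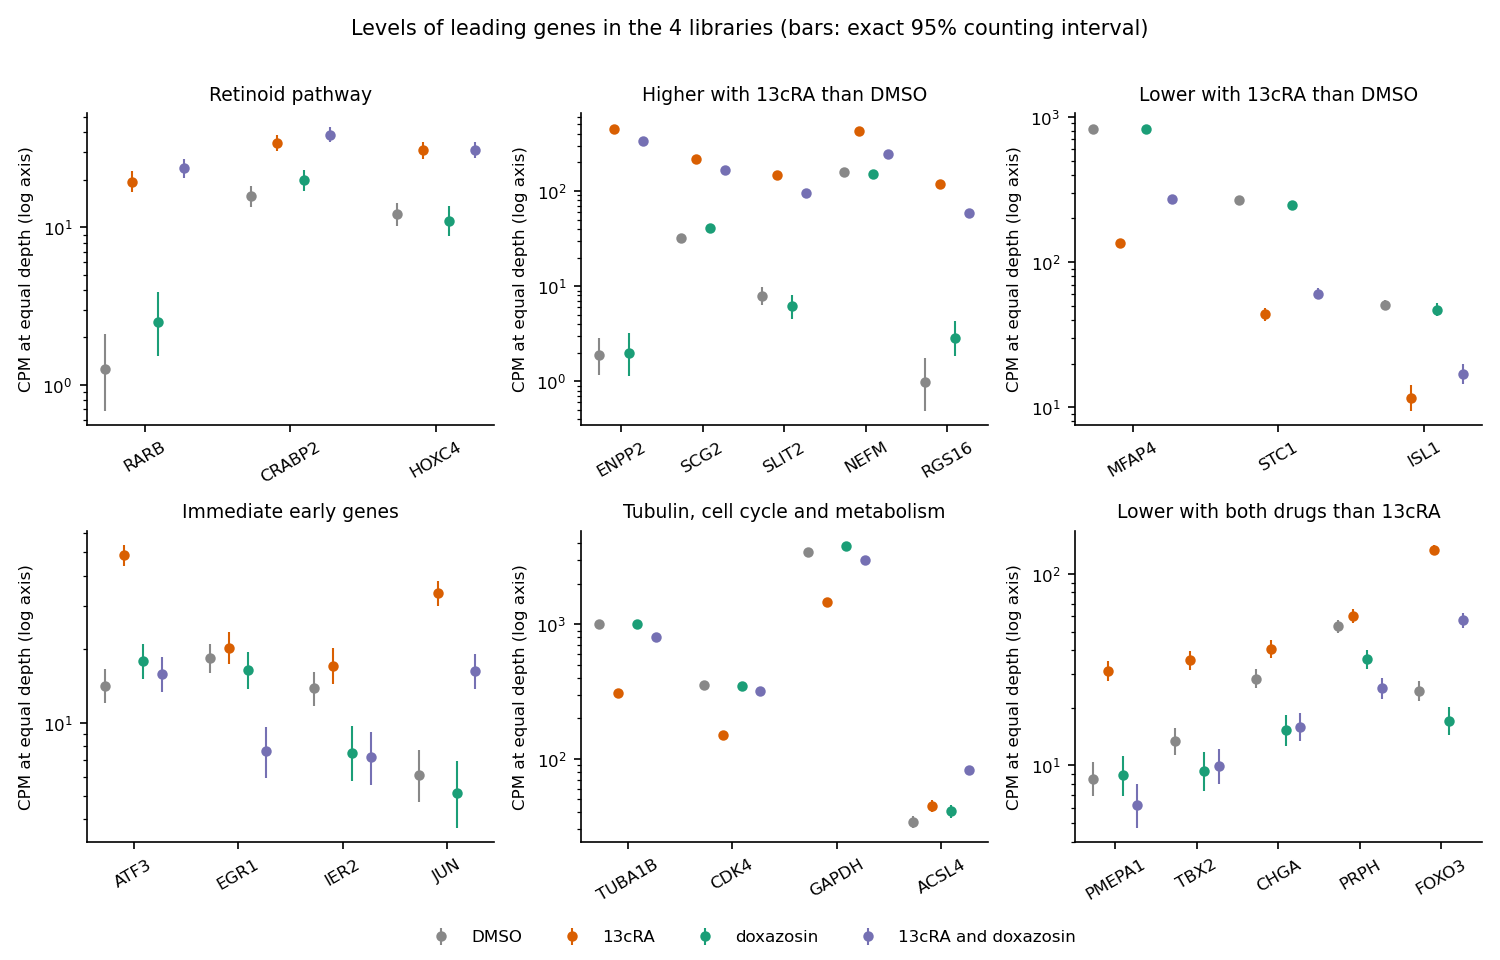
CPM at equal depth (log axis) of 24 genes in the DMSO, 13cRA, doxazosin and combination libraries, with exact 95% Poisson intervals of the summed counts as bars and 1 library per point. RARB, CRABP2 and HOXC4 sit at similar levels with 13cRA and with both drugs, ATF3 and TUBA1B return toward the DMSO level, and ACSL4 is highest with both drugs.

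MFAP4, STC1 and ISL1, known from earlier results to be low with 13cRA, were higher with both drugs and below DMSO. MFAP4, a microfibril-associated glycoprotein, stood at 827 CPM with DMSO, 135 with 13cRA, 819.9 with doxazosin and 273 with both drugs, so that the combination was 2.02-fold above 13cRA and still far below the 2 libraries without retinoid. Among thinned cells MFAP4 was counted in 64.3% (58 to 70.2) with 13cRA and 89.6% (85.4 to 93) with both drugs (69.5% and 93.4% unthinned), and in positive cells the median count was 5 with 13cRA and 8 with both drugs. The secreted stanniocalcin STC1 was at 268 CPM with DMSO, 43.9 with 13cRA, 245 with doxazosin and 60.8 with both drugs. ISL1, a LIM-homeodomain factor of the noradrenergic circuit, measured 50.6 CPM with DMSO, 11.7 with 13cRA, 46.9 with doxazosin and 17.1 with both drugs. All 3 genes kept the order DMSO, doxazosin, both drugs and 13cRA from the highest to the lowest. The ISL1 difference was small in counts and turned to -0.06 log2 when cells were thinned to 20000 counts, so its direction within the retinoid libraries is not settled. MFAP4 is an elastic-fibre component, and the extracellular matrix and integrin list as a whole went the other way, with 13 of 17 measured members lower and a median of -0.35 log2. Past 2-fold, however, 2 members were higher and 1 was lower, against 1.76% and 2.08% of all genes. The higher ones were MFAP4 and MFAP2 (1.02 log2), the latter counted in 27 thinned 13cRA cells and 55 with both drugs. The lowest member of the list was MMP11, a stromelysin family protease, at 2.60 CPM with DMSO, 47.6 with 13cRA, 2.63 with doxazosin and 18.2 with both drugs. The 5% of cells with the most MMP11 counts held 85.1% of them with 13cRA, and the difference turned to 0.52 log2 in cells matched for detected genes.

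All 10 measured immediate early genes were lower with both drugs than with 13cRA, 4 of them past 2-fold, with a median of -0.70 log2 against 0.03 for all genes. Immediate early genes are transcription factors and regulators that cells switch on within minutes of growth factor or stress signals. ATF3, a stress-induced repressor and activator of the CREB family, stood at 14.2 CPM with DMSO, 48.7 with 13cRA, 17.9 with doxazosin and 15.8 with both drugs. Only the 13cRA library was high, and the combination fell between DMSO and doxazosin. JUN, a subunit of AP-1, was at 6.10 CPM with DMSO, 34 with 13cRA, 5.13 with doxazosin and 16.2 with both drugs, with the combination between 13cRA and the 2 libraries without retinoid. EGR1, a zinc finger factor, measured 18.4 CPM with DMSO, 20.3 with 13cRA, 16.4 with doxazosin and 7.63 with both drugs. Here the library with both drugs was the lowest of the 4 and its counting interval, 5.94 to 9.63 CPM, did not overlap that of 13cRA. EGR1 rested on few cells, 43 thinned cells with 13cRA and 33 with both drugs. The highest 5% of cells held 58.1% and 70% of its counts. The intervals of its share of cells, 12.8% to 22.5% with 13cRA and 8.56% to 16.7% with both drugs, overlapped. IER2 stood at 13.8 CPM with DMSO, 17.1 with 13cRA, 7.51 with doxazosin and 7.19 with both drugs, low in both doxazosin-treated libraries. FOS, the other AP-1 subunit, differed least, with 32.7 CPM with 13cRA against 26.7 with both drugs, and was 0.35 log2 higher with both drugs without its highest 5% of cells. Doxazosin without retinoid gave a median of -0.17 log2, with 3 of the 10 genes higher than DMSO. The 4 genes past 2-fold compare with 2.08% of all measured genes past 2-fold lower. The list had lower median differences than all genes under each of 16 alternatives, from -1.30 to -0.40 log2. Per cell, 33.3% (95% interval 27.7 to 39.3) of thinned combination cells lay above the 13cRA median, while 28 of the 33 lists had shares above 50%. Without thinning, where depth per cell differed, the share was 48.1%.

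The EGR1 promoter is shown because EGR1 was lowest with both drugs and is a textbook target of serum response factor, which binds CArG boxes. The activity of this factor was not measured. EGR1 lies at chr5:138465490-138469315, plus strand (GENCODE 29, GRCh38), and the RefSeq window is at chr5:138465229-138465528 on the plus strand of GRCh38.p14. The 2 CArG boxes, between bases -105 and -74 relative to the start, are in capitals.
EGR1 promoter: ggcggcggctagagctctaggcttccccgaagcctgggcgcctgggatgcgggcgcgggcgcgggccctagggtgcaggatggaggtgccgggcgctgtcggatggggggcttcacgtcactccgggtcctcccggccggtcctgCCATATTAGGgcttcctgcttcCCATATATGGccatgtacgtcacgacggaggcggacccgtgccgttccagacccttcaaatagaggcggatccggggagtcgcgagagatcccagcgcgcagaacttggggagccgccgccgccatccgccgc
A CArG box was found on either strand in 454 of 35116 RefSeq windows (1.29%). Of the 10 measured immediate early genes 2 had one in at least 1 window, EGR1 and SRF (1 of its 2 windows). The count of genes and the share of windows are unlike units. Elements more than 250 bases before a start were not searched. SRF, which encodes serum response factor itself, was lower with both drugs than with 13cRA, at 43.2 against 64.8 CPM. No measurement of binding exists in these data.

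The genes furthest below their 13cRA level were led by PMEPA1, a membrane protein that restrains TGF-beta signalling, at 8.52 CPM with DMSO, 31.2 with 13cRA, 8.89 with doxazosin and 6.21 with both drugs. Its counting intervals were 27.5 to 35.2 CPM with 13cRA and 4.70 to 8.04 with both drugs, a 5.02-fold difference. CCNL2, a cyclin of the splicing machinery, was at 17.8 CPM with DMSO, 58.4 with 13cRA, 13.4 with doxazosin and 15.5 with both drugs, and SMO, the Hedgehog signal transducer, at 16.1 CPM with DMSO, 50.7 with 13cRA, 15.8 with doxazosin and 13.7 with both drugs. These 3 levels with 13cRA came largely from few cells: the 12 thinned 13cRA cells (5%) with the most counts of each gene held 72.7% of PMEPA1, 78.7% of CCNL2 and 72% of SMO counts. Without each gene's highest 5% of cells in each library the log2 difference was -1.81 for PMEPA1, -0.54 for CCNL2 and -0.91 for SMO, against -2.16, -1.85 and -1.81 with all cells. TBX2, a T-box factor of the noradrenergic core circuit, was at 13.4 CPM with DMSO, 35.3 with 13cRA, 9.39 with doxazosin and 9.91 with both drugs, and its highest 5% of cells held 40.8% of its counts with 13cRA. The guanylate-binding protein GBP4 stood at 22.6 CPM with DMSO, 76 with 13cRA, 25.8 with doxazosin and 27.8 with both drugs, and CHAF1A, a subunit of the histone chaperone that loads histones behind the replication fork, at 45.2 CPM with DMSO, 79.3 with 13cRA, 33.5 with doxazosin and 28.6 with both drugs. Both were highest with 13cRA, and their highest 5% of 13cRA cells held 25.5% and 29.1% of their counts. The intermediate filament NES (nestin, of neural progenitors) was at 14.3 CPM with DMSO, 30.2 with 13cRA, 11 with doxazosin and 10.1 with both drugs. The remaining genes of the 12 lowest were the long noncoding RNA HELLPAR, ATF3, the kinase PIM3, the Ras-like DIRAS1 and SAC3D1, with log2 differences between -1.62 and -1.44. The difference was -0.16 log2 for TBX2 and -0.25 for PIM3 in cells matched for detected genes.

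Neuronal secretory and filament genes split. Among 38 measured neuronal differentiation genes 17 were higher and 21 lower with both drugs, with 2 past 2-fold higher and 3 lower, against 1.76% and 2.08% of all genes, and a median of -0.13 log2, which turned to 0.01 with TMM factors. Chromogranin A (CHGA), a core protein of dense granules, stood at 28.4 CPM with DMSO, 40.5 with 13cRA, 15.3 with doxazosin and 15.9 with both drugs, and the peripheral neuron filament PRPH at 53.2 CPM with DMSO, 60.4 with 13cRA, 35.8 with doxazosin and 25.3 with both drugs. Both were lower in each doxazosin-treated library than in its partner without doxazosin. On the other side SNAP25, a SNARE of synaptic vesicle fusion, was at 27.4 CPM with DMSO, 13.9 with 13cRA, 34.9 with doxazosin and 37.8 with both drugs and MLLT11 at 420.3 CPM with DMSO, 208 with 13cRA, 548 with doxazosin and 491 with both drugs, with 13cRA the lowest of the 4 libraries in both. STMN1, a microtubule-destabilising protein singled out after its values were seen, was found in every thinned cell and measured 7723 CPM with DMSO, 8874 with 13cRA, 8944 with doxazosin and 12727 with both drugs. Its median count per positive cell was 276 with 13cRA and 422 with both drugs. The combination was the highest of the 4 libraries, 1.43-fold above 13cRA.

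The genes furthest above their 13cRA level were mostly ones at which 13cRA was the lowest library. CTH, the transsulfuration enzyme that makes cysteine from cystathionine, stood at 18.3 CPM with DMSO, 6.50 with 13cRA, 25.7 with doxazosin and 27.1 with both drugs, a 4.18-fold difference with intervals of 4.89 to 8.46 CPM with 13cRA and 23.9 to 30.7 with both drugs. It was counted in 26 thinned 13cRA cells and 78 cells with both drugs. The Golgi SNARE BET1 was at 31.1 CPM with DMSO, 11.5 with 13cRA, 34.9 with doxazosin and 37.4 with both drugs, the Mediator cyclin CCNC at 47.1 CPM with DMSO, 17.4 with 13cRA, 44.9 with doxazosin and 51 with both drugs, and DEPDC1B, a cell cycle and adhesion regulator, at 48.6 CPM with DMSO, 14.5 with 13cRA, 48.3 with doxazosin and 43.4 with both drugs. In all 4 genes the combination lay close to or above DMSO. SEC23A, a coat protein of vesicles that leave the endoplasmic reticulum, was at 44.5 CPM with DMSO, 16.8 with 13cRA, 60.3 with doxazosin and 47.2 with both drugs. The others of the 12 highest were CKMT2-AS1, RELL1, the nucleoside kinase DCK, the phosphatase PUDP, EFCAB2, the mitochondrial protein HIGD1A and LINC02525, between 1.42 and 1.64 log2. CKMT2-AS1 is an antisense gene, and since the strandedness of the counting is not given its reads cannot be told apart from those of the gene it overlaps. PSAT1, an enzyme of serine synthesis, was 2.55-fold higher at 54.3 CPM with 13cRA against 139 with both drugs, and the sterol carrier STARD4 2.64-fold higher at 14.9 CPM with 13cRA against 39.3 with both drugs. Leaving out each gene's highest 5% of cells kept 130 of the 138 higher genes past 2-fold, and 117 of the 163 lower ones. That setting also raised the median of all genes. Another thinning seed kept 107 of the higher and 116 of the lower genes past 2-fold, and all kept their direction. Matched cells kept 48 and 73 past 2-fold, with 130 and 155 in the same direction. In the matched cells DCK turned to -0.18 log2.

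The mitochondrially encoded mRNAs were all lower with both drugs. Each of the 13, which encode respiratory chain and ATP synthase subunits, was lower than with 13cRA, with a median of -0.69 log2 and none past 2-fold. MT-ND4 of complex I measured 8687 CPM with DMSO, 14970.4 with 13cRA, 8747 with doxazosin and 8874 with both drugs, and MT-CO2 of cytochrome oxidase 9470.4 CPM with DMSO, 15743 with 13cRA, 9257 with doxazosin and 9987 with both drugs. The 13cRA library alone was high, and for both genes the combination lay slightly above DMSO and doxazosin. MT-ND6, the one coded on the other strand of the mitochondrial genome, was at 425 CPM with DMSO, 762 with 13cRA, 435 with doxazosin and 411 with both drugs. The smallest difference was that of MT-ND3, at -0.42 log2. Of thinned combination cells 4.07% (95% interval 2.05 to 7.17) lay above the 13cRA median of this list (5.23% unthinned). In cells matched for detected genes the median was -0.36 log2. With doxazosin alone the list's median was 0.04 log2 against DMSO.

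Nuclear genes of the same complexes went the opposite way. Of 51 measured nuclear oxidative phosphorylation genes 35 were higher and 16 lower with both drugs, with a median of 0.19 log2, while 4095 of all 7853 genes were higher. Of the 51, 2 were past 2-fold higher, against 1.76% of all genes. The 2 were the succinate dehydrogenase subunits SDHC (96.1 CPM with DMSO, 50.7 with 13cRA, 111 with doxazosin and 119 with both drugs) and SDHD (56.9 CPM with DMSO, 29.3 with 13cRA, 74.1 with doxazosin and 67.9 with both drugs). UQCRC2, a core protein of complex III, stood at 209 CPM with DMSO, 117 with 13cRA, 231 with doxazosin and 223 with both drugs. All 3 were lowest with 13cRA, and 94.8% (95% interval 91.5 to 97.1) of thinned combination cells lay above the 13cRA median of the list (90.9% unthinned). Such shares were above 50% for 28 of the 33 lists. They included the extracellular matrix and integrin list (61.1%), whose median was -0.35 log2, so the share alone gives no direction. Glycolysis and hypoxia genes were higher for 22 of 31 members, with a median of 0.22 log2. GAPDH stood at 3474 CPM with DMSO, 1463 with 13cRA, 3848 with doxazosin and 3002 with both drugs, the lactate dehydrogenase LDHA at 3773 CPM with DMSO, 2327 with 13cRA, 4329 with doxazosin and 3513 with both drugs and phosphoglycerate kinase PGK1 at 873 CPM with DMSO, 599 with 13cRA, 1016 with doxazosin and 974 with both drugs. ALDOA had the largest difference of the list, 1.93 log2 at 4.25 CPM with 13cRA against 19 with both drugs; its reads, like those of GAPDH, can be shared with near-identical or overlapping loci, so its level is uncertain. PGK1 and LDHA were lowest with 13cRA and close to DMSO or above it with both drugs.

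Tubulin and iron genes also had most members higher. Of 12 tubulin genes 10 were higher, with a median of 0.23 log2, which was 0.05 in cells matched for detected genes. TUBA1B measured 1008 CPM with DMSO, 306 with 13cRA, 1012 with doxazosin and 809 with both drugs and TUBA1C 211 CPM with DMSO, 104 with 13cRA, 213 with doxazosin and 188 with both drugs; these alpha-tubulin genes are near-identical in their coding sequence, so reads may be split between them. The median TUBA1B count in positive cells was 10 with 13cRA and 28 with both drugs. TUBA1A, which codes for the main alpha-tubulin of neurons and was singled out after its values were seen, was at 2890.0 CPM with DMSO, 3293 with 13cRA, 3677 with doxazosin and 4218 with both drugs. Gamma-tubulin TUBG1, of the microtubule-nucleating ring, stood at 549 CPM with DMSO, 263 with 13cRA, 519 with doxazosin and 439 with both drugs. Among iron genes 9 of 11 were higher, with a median of 0.40 log2. ACO1, the cytosolic aconitase that doubles as an iron sensor, was at 41.4 CPM with DMSO, 18.5 with 13cRA, 31.8 with doxazosin and 39.5 with both drugs, the light ferritin chain FTL at 902 CPM with DMSO, 744 with 13cRA, 907 with doxazosin and 1117 with both drugs and the heavy chain FTH1 at 144 CPM with DMSO, 44.9 with 13cRA, 98.9 with doxazosin and 59.6 with both drugs. Ferritin genes have many processed copies, so both levels are uncertain. FTH1 was low in both retinoid libraries and FTL was highest with both drugs, so the chains did not share an order over the libraries. The mitochondrial iron importer SLC25A37 went the other way, at 68 CPM with 13cRA against 38.8 with both drugs.

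**Figure D2:**
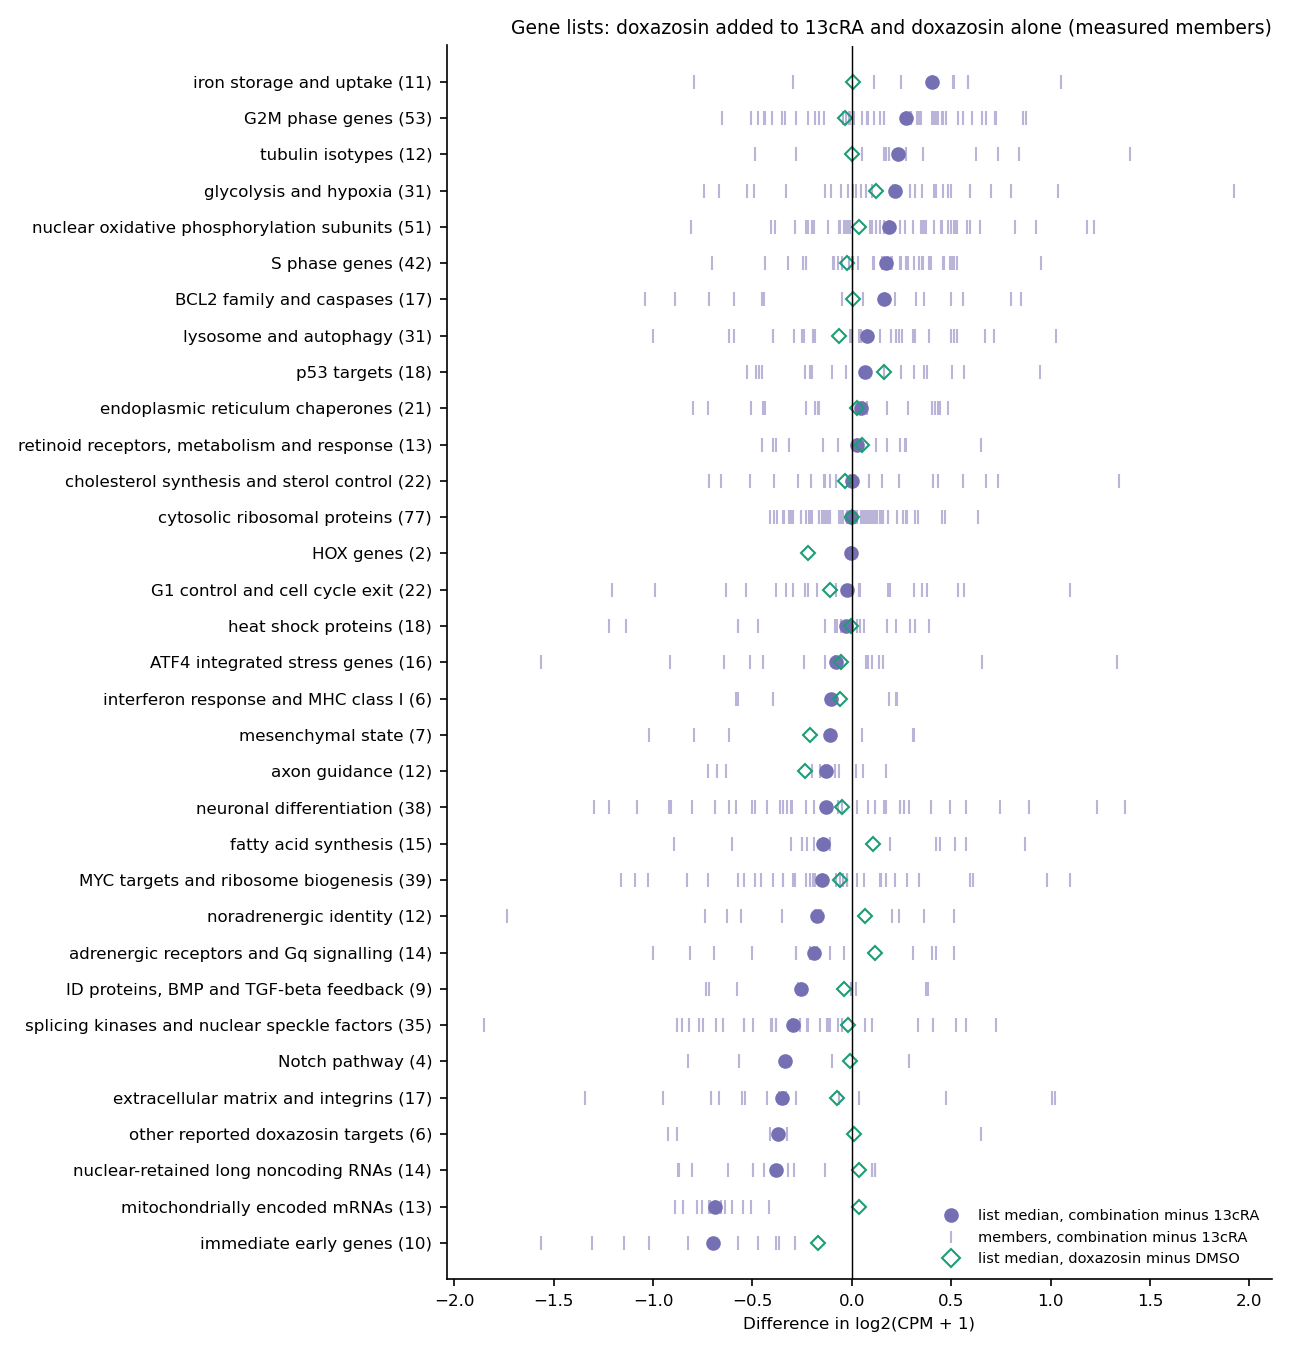
Differences in log2(CPM + 1) for 33 gene lists with the number of measured members in brackets: ticks are members and filled circles list medians for both drugs minus 13cRA, and open diamonds are list medians for doxazosin minus DMSO. Immediate early genes and mitochondrially encoded mRNAs have medians near -0.70 and -0.69 for doxazosin added to 13cRA, while those lists' doxazosin minus DMSO medians are -0.17 and 0.04.

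Cell cycle genes were slightly higher with both drugs over all cells. Of 42 S phase genes 31 were higher and of 53 G2M genes 36 were higher, with medians of 0.17 and 0.27 log2 and none past 2-fold. The replicative helicase subunit MCM2 stood at 41.7 CPM with DMSO, 15.9 with 13cRA, 41.8 with doxazosin and 31.8 with both drugs, CDK1, the mitotic kinase, at 135 CPM with DMSO, 76.9 with 13cRA, 164 with doxazosin and 140.3 with both drugs, and CDK4, the kinase of early G1, at 351 CPM with DMSO, 149 with 13cRA, 346 with doxazosin and 319.8 with both drugs. In these 3 genes 13cRA was the lowest library. MKI67 (155 CPM with 13cRA against 111 with both drugs), a proliferation antigen, and NASP (1019 CPM with 13cRA against 625 with both drugs), a histone chaperone, went the other way. The medians reversed in cells with 4000 to 4600 detected genes, to -0.44 log2 for S phase and -0.66 for G2M genes, so the direction of both lists rested on which cells entered. Phase calls placed 22.1% (17.1 to 27.8) of thinned 13cRA cells and 24.8% (19.8 to 30.4) of combination cells in S phase, against 44.5% with DMSO and 39.1% with doxazosin. G2M calls were 70.7% (64.6 to 76.3) and 71.1% (65.3 to 76.4), and G1 calls 7.23% (4.34 to 11.2) and 4.07% (2.05 to 7.17). Without thinning the S shares were 17.6% with 13cRA and 23.0% with both drugs, and the G1 shares 9.12% and 6.62%. These intervals cover the sampling of cells within 1 culture each, and no difference in cycling between treatments is read from the calls. The cyclin-dependent kinase inhibitors CDKN1A (50.3 CPM with 13cRA against 62.9 with both drugs) and CDKN1B (60.2 CPM with 13cRA against 77.3 with both drugs) were each under 1.5-fold higher. FOXO3, a forkhead factor of cell cycle exit and apoptosis, stood at 24.6 CPM with DMSO, 133 with 13cRA, 17.1 with doxazosin and 57.2 with both drugs and CCNE1, cyclin E, at 32.9 CPM with DMSO, 49 with 13cRA, 20.3 with doxazosin and 24.2 with both drugs.

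**Figure D3:**
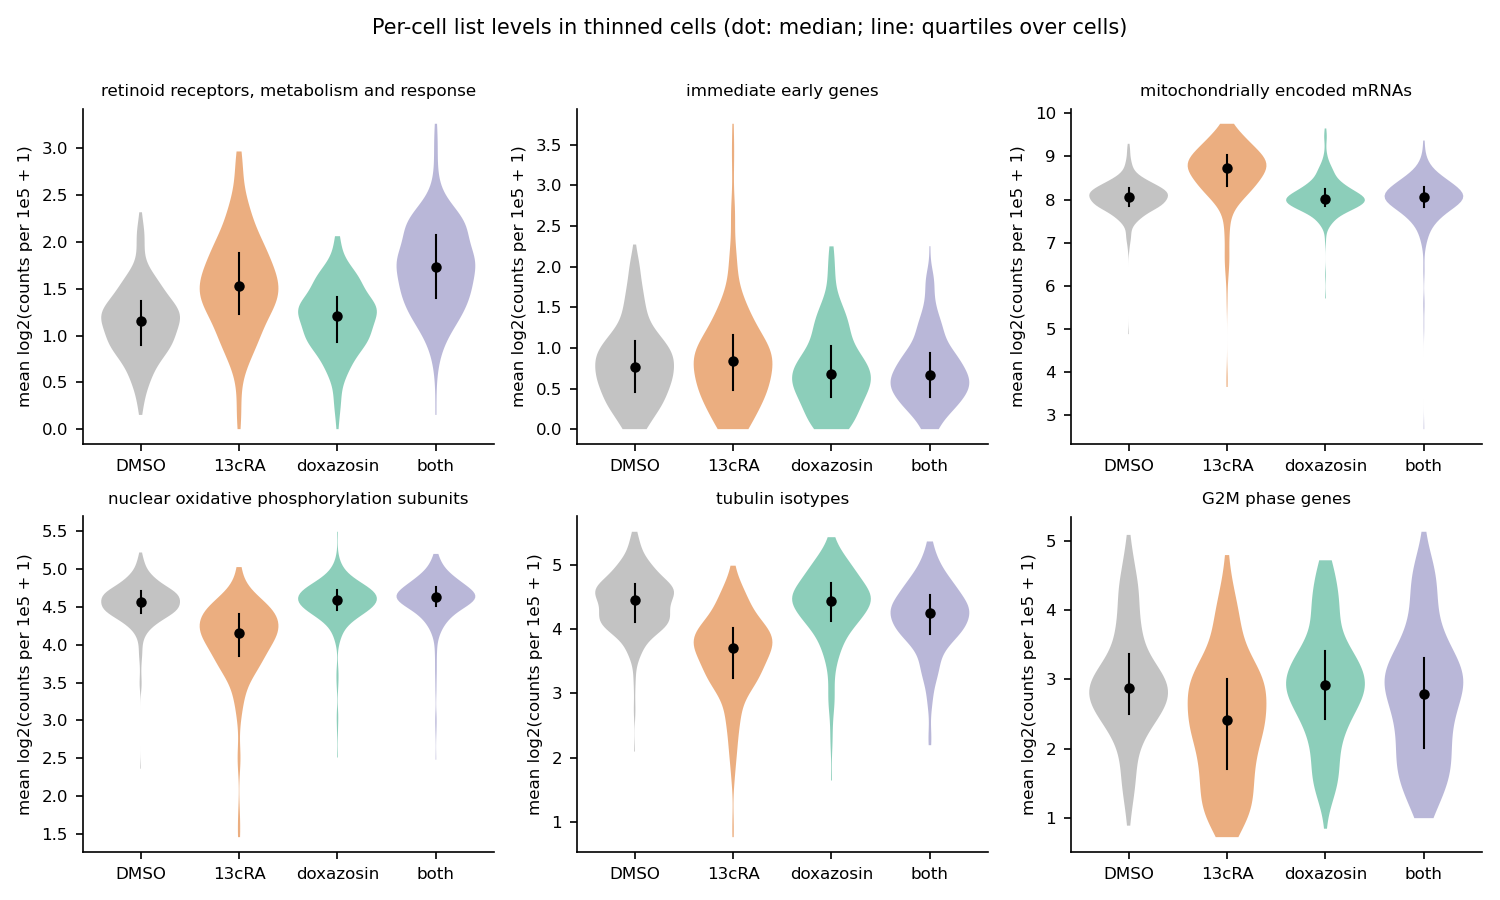
Mean log2(counts per 1e5 + 1) of 6 gene lists in each thinned cell of the DMSO, 13cRA, doxazosin and combination (both) libraries, with the median as a dot and the quartiles as a line. Cells with both drugs overlap the DMSO and doxazosin cells for mitochondrially encoded mRNAs and nuclear respiratory chain genes, and lie with the 13cRA cells for the retinoid list.

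Nuclear RNAs that were high with 13cRA were lower in the combination. MALAT1, the most studied speckle-associated noncoding RNA, stood at 930.1 CPM with DMSO, 2213 with 13cRA, 1079 with doxazosin and 1266 with both drugs, and NEAT1, the scaffold of paraspeckles, at 90.3 CPM with DMSO, 296 with 13cRA, 104 with doxazosin and 161 with both drugs. Of 14 nuclear-retained noncoding RNAs 10 were lower, with a median of -0.38 log2, which became 0.10 in cells matched for detected genes. Splicing kinases and speckle factors were lower for 28 of 35 members, with a median of -0.30 log2. LUC7L3, a U1-associated factor, was at 279 CPM with DMSO, 519 with 13cRA, 279.6 with doxazosin and 294 with both drugs, and the kinase CLK2 at 25.2 CPM with DMSO, 51.3 with 13cRA, 27.3 with doxazosin and 27.5 with both drugs. In both genes only the 13cRA library stood high. Lower median differences for the splicing list were seen under each of the 16 alternatives, between -0.49 and -0.15 log2.

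Doxazosin's receptors were close to the limit of detection. ADRA1A had 2 counts with 13cRA and 1 with both drugs, ADRA1B had 0 and 1, and ADRA1D had none in either library, so no fold is given. Among 14 measured adrenergic and Gq pathway genes 4 were higher and 10 lower, with a median of -0.19 log2 that was -0.05 with TMM factors. The regulators RGS16, described above, and RGS8 (30.2 CPM with 13cRA against 16.8 with both drugs) led the lower side, and the diacylglycerol kinase DGKE was at 28.9 CPM with DMSO, 47.4 with 13cRA, 33.9 with doxazosin and 28.9 with both drugs. Of 6 measured genes reported as doxazosin targets outside these receptors 5 were lower. The placental growth factor gene PGF measured 24.3 CPM with DMSO, 12.3 with 13cRA, 11.6 with doxazosin and 5.99 with both drugs, so each doxazosin-treated library was below its partner. It was counted in only 31 thinned 13cRA cells and 29 with both drugs, and its log2 difference of -0.93 was -0.40 without thinning and -0.17 with cells thinned to 60000 counts. KCNH2, the hERG potassium channel that doxazosin is known to block, was at 24 CPM with DMSO, 24.9 with 13cRA, 25.5 with doxazosin and 13.1 with both drugs, low in the combination alone. Its difference of -0.88 log2 was -0.50 when cells were thinned to 60000 counts and -0.04 in cells matched for detected genes.

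Cell identity, survival and stress lists had members on both sides. MYCN stood at 763 CPM with DMSO, 1074 with 13cRA, 752 with doxazosin and 843 with both drugs, and GATA3, a noradrenergic core factor, at 316 CPM with DMSO, 451 with 13cRA, 287 with doxazosin and 292 with both drugs. The 12 noradrenergic genes had a median of -0.17 log2 with 8 lower. PHOX2A, a homeodomain factor of this circuit, was at 22.8 CPM with DMSO, 17 with 13cRA, 14.6 with doxazosin and 9.80 with both drugs, lowest with both drugs. Among 17 BCL2 family and caspase genes 10 were higher and 7 lower, with the largest differences on both sides. CYCS (0.85 log2) and BNIP3 (0.80 log2) were higher. BCL2L11 (16.8 CPM with 13cRA against 8.61 with both drugs) and BAD (24.3 CPM with 13cRA against 11.3 with both drugs) were lower. Of 9 ID protein and BMP or TGF-beta feedback genes 6 were lower, led by TGFB3, with a median of -0.25 log2. ID1, an inhibitor of basic helix-loop-helix factors, stood at 122 CPM with DMSO, 66.6 with 13cRA, 68.6 with doxazosin and 40.1 with both drugs. Heat shock proteins had a median of -0.03 log2, p53 targets 0.06, endoplasmic reticulum chaperones 0.05 and ribosomal proteins -0.01. Each of these 4 medians changed sign under at least 1 of TMM factors, totals without mitochondrially encoded genes and subtraction of the GC median, so no direction is given. Of the 18 heat shock list members 2, HSF1 (-1.14 log2) and HSPA1B (-1.22 log2), were past 2-fold lower, against 2.08% of all genes. Of 22 cholesterol genes 11 were higher and 11 lower; HMGCS1 was 1.67-fold higher, and SREBF2, which encodes a master regulator of the pathway, 1.66-fold lower. Of 39 MYC target and ribosome biogenesis genes 27 were lower, with a median of -0.15 log2. The nucleolar methyltransferase FBL stood at 269 CPM with DMSO, 493 with 13cRA, 209 with doxazosin and 242 with both drugs.

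The effect of doxazosin with and without 13cRA was set side by side from pairs of libraries that share no sample. Across 7853 genes the difference of both drugs from 13cRA and of doxazosin from DMSO had a Pearson r of 0.32 and a Spearman rho of 0.35, as a description over genes, which are not replicates. After genes were put in 5 equal groups by GC content and each group's median was subtracted from both differences, r was 0.23 and rho 0.27 over 7849 genes. The largest departures under the naming rule, meaning the first difference minus the second, were those of SUOX, CKMT2-AS1, PRKCH, CCNC and GTSF1 upward and of PMEPA1, ATF3, SMO, YPEL3 and BMF downward. PRKCH, the protein kinase C eta gene, stood at 1.43 CPM with DMSO, 11.3 with 13cRA, 0.375 with doxazosin and 21.6 with both drugs, highest with both drugs. Its mean over the libraries was below 10 CPM, and its doxazosin and DMSO levels rest on 3 and 16 counts. BMF, a pro-apoptotic BCL2 family member, was at 1.52 CPM with DMSO, 25.8 with 13cRA, 4.01 with doxazosin and 15.3 with both drugs, and YPEL3 at 3.32 CPM with DMSO, 22.4 with 13cRA, 6.51 with doxazosin and 11.2 with both drugs. Both were higher with each drug alone than with DMSO and lay lower with both drugs than with 13cRA. The latter direction held in 14 of 16 alternatives for BMF and in 15 of 16 for YPEL3. BMF was counted in 53 thinned 13cRA cells and 55 with both drugs. The highest 5% of cells held 53.2% and 52.1% of its counts. The departures were 1.69 log2 for PRKCH, -1.88 for ATF3, -2.21 for PMEPA1 and -1.71 for BMF, with 1 culture per condition and no test.

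Few of the measured genes had the combination as the outermost library. At a margin of 1.5-fold, the library with both drugs lay above the other 3 in 22 genes and below them in 48, against 22 and 41 genes for doxazosin, 8 and 27 for DMSO and 375 and 469 for 13cRA. The combination's counts were thus near those of doxazosin alone. These genes were chosen by their values, so the following levels are a description. ACSL4, which activates arachidonic acid for incorporation into phospholipids, stood at 33.7 CPM with DMSO, 44.8 with 13cRA, 40.8 with doxazosin and 82.8 with both drugs, and the G protein gamma subunit GNG2 at 15.2 CPM with DMSO, 25 with 13cRA, 18.1 with doxazosin and 51 with both drugs. CDS2, of phosphoinositide synthesis, was at 22.3 CPM with DMSO, 23.6 with 13cRA, 21.8 with doxazosin and 39.7 with both drugs, and SOCS5, a cytokine signalling suppressor, at 5.83 CPM with DMSO, 13 with 13cRA, 9.14 with doxazosin and 22.1 with both drugs. On the low side stood the doublecortin-like kinase DCLK3 at 29.1 CPM with DMSO, 4.13 with 13cRA, 21 with doxazosin and 1.31 with both drugs, the Wnt inhibitor DKK1 at 20.8 CPM with DMSO, 17.7 with 13cRA, 18 with doxazosin and 8.93 with both drugs and IGFBP2 at 11.5 CPM with DMSO, 12.6 with 13cRA, 15.9 with doxazosin and 5.56 with both drugs. SSTR2, the somatostatin receptor used in neuroblastoma imaging, was at 466 CPM with DMSO, 273 with 13cRA, 387 with doxazosin and 181 with both drugs, lower with each drug than with DMSO and lowest with both. HES6, a Notch-related repressor, followed the same order at 34 CPM with DMSO, 23.2 with 13cRA, 26.4 with doxazosin and 12.6 with both drugs. For DKK1 the log2 difference was 0.57 without its highest 5% of cells, against -0.91 with them, and for CDS2 it was -0.27 in the matched cells. DCLK3 rests on 35 counts with 13cRA and 12 with both drugs, and its difference of -1.15 was -0.79 with another thinning seed and 0 without its highest 5% of cells.

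GC content moved with the difference. The 138 higher genes had a median GC content of 43.1% in their longest transcript and the 163 lower genes 57.3%, against 45.8% for all measured genes. The median log2 difference of both drugs from 13cRA was 0.17 in the lowest of 5 equal groups of genes by GC content and -0.24 in the highest. The doxazosin difference from DMSO ran in parallel, from 0.13 to -0.18, and that of 13cRA from DMSO did not, from -0.06 to 0.05. Spearman's rho with GC content over 7849 genes was -0.29 for doxazosin added to 13cRA and -0.43 for doxazosin over DMSO. Less the median of each gene's GC group, the immediate early list kept a median of -0.60 log2, the mitochondrially encoded mRNAs -0.73, the nuclear oxidative phosphorylation genes 0.21 and the tubulins 0.40. Whether this gradient arose in the cells or in library preparation was not tested.

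**Figure D4:**
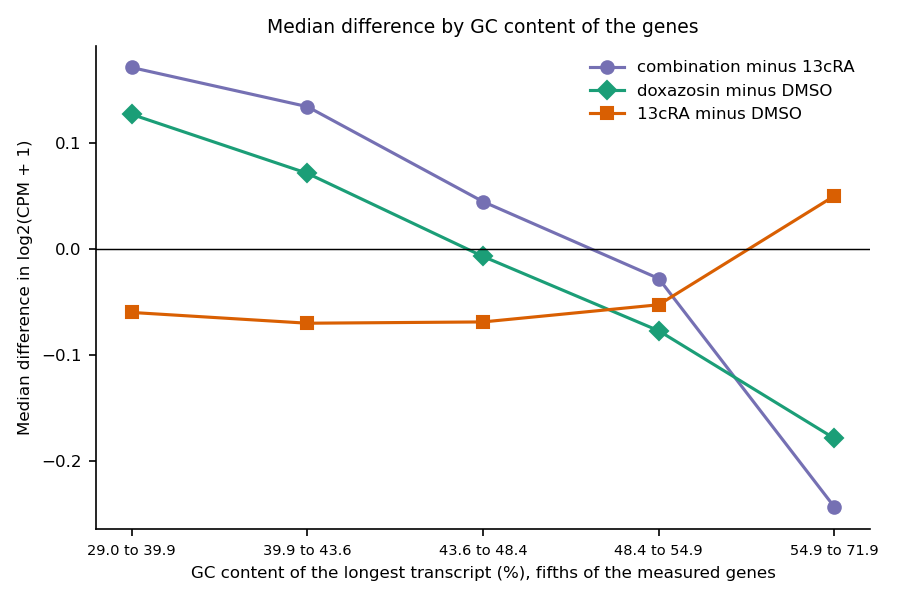
Median difference in log2(CPM + 1) in 5 equal groups of the measured genes by GC content (%) of the longest transcript, for both drugs minus 13cRA, doxazosin minus DMSO and 13cRA minus DMSO, 1 library each. The first 2 lines fall from 0.17 to -0.24 and from 0.13 to -0.18, and the third stays between -0.07 and 0.05.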

How the data were processed

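Full-length single-cell RNA-seq on the ICELL8 system measured 1287 CHP134 cells in 1 table of 60651 gene IDs, of which 60481 have a symbol. Its values are raw read counts per gene and cell as deposited by the authors, without molecular identifiers, so counting intervals do not cover amplification. The submitters' processing notes name STAR 2.7.8a, fastp 0.23.3, Seurat 4.3.0, featureCounts and bcl2fastq, and list GRCh37 beside GRCh38.p13 as genome builds without saying what each was for. For the annotation release, strandedness and multi-mapping reads they give nothing, so levels of genes with near-identical, overlapping or antisense partners (tubulin, ferritin, ribosomal protein, GAPDH and succinate dehydrogenase genes among them) are uncertain. Per the labels, wells were imaged so that single live cells were processed. No doublet caller was run, and 4 kept cells with both drugs had more than 9000 detected genes (up to 18592). The columns name cells by running number, so cell barcodes shared between libraries could not be counted.

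Cells were filtered, thinned without replacement to 34000 counts (seed 1) and summed per library, with kept totals of 22636509 counts for 13cRA and 72192743 for both drugs and thinned totals of 8466000 and 9180000. Differences are of log2(CPM + 1). Genes entered at a mean of 10 CPM over the 4 libraries, and a call is a difference of at least 2-fold. Levels have exact 95% Poisson intervals and shares of cells exact Clopper-Pearson ones. Phase calls used scanpy 1.11.5. Other tools were Python 3.11.15, numpy 2.4.6, scipy 1.17.1 and pandas 2.3.3, and, for alternative scaling factors only, edgeR 4.0.16 and DESeq2 1.42.0 in R 4.3.3. The thinning and sums were tested on simulated data. Gene positions are from GENCODE 29 on GRCh38, in which 58405 of the 60651 gene IDs were found, and promoter windows of 300 bases from RefSeq (GRCh38.p14).

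The 33 gene lists, 7 marker lists and members were chosen with earlier results of these data known. Named genes had at least 20 CPM and counts in at least 20% of cells in 1 of the 2 libraries and the same direction in thinned levels, unthinned levels and shares (3719 candidates). From these came the 12 highest, the 12 lowest and 5 departures a side. Up to 4 members per list and a fixed set of retinoid, adrenergic and cell cycle genes were added, and genes named beside this rule are said to be so or are FOS, SRF, LDHA, PGK1, MT-CO2 and MT-ND3, which were chosen after their values were seen. DNA sequences come only from the RefSeq windows.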

Additional observations from a re-analysis of the deposited data

How the results depend on the processing

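Of 36 summary values (2 counts of genes past 2-fold, the median of all measured genes and 33 list medians) under 16 alternatives, 528 results stayed within their interval, or within 1.5 times the count, and 48 did not. The interval of a median was a range of ranked gene values around it, which describes spread among genes. For the HOX and Notch lists, with few measured members, it was counting error instead. Leaving out each gene's highest 5% of cells and subtracting the median of each GC group were chosen after seeing the data. With cells thinned to 60000 counts, 214 genes were past 2-fold higher. With TMM factors, 270 genes were past 2-fold higher and 91 genes were past 2-fold lower. Log2 medians were 0.17 for all genes, 0.32 for S phase genes, 0.42 for G2M phase genes, -0.54 for mitochondrially encoded mRNAs, 0.14 for cytosolic ribosomal proteins and -0.011 for MYC targets and ribosome biogenesis. With DESeq2 size factors, 220 genes were past 2-fold higher and 107 genes were past 2-fold lower. Log2 medians were 0.13 for all genes and 0.095 for cytosolic ribosomal proteins. With totals without mitochondrially encoded genes, the log2 median was -0.033 for all genes. With a pseudocount of 5 CPM, 66 genes were past 2-fold higher and 77 genes were past 2-fold lower. Without the filter on low genes, 430 genes were past 2-fold higher and 1277 genes were past 2-fold lower. The log2 median was -0.13 for all genes. In cells with 4000 to 4600 detected genes, 223 genes were past 2-fold higher and 390 genes were past 2-fold lower. Log2 medians were -0.037 for all genes, 0.10 for axon guidance, -0.44 for S phase genes, -0.66 for G2M phase genes, -0.36 for mitochondrially encoded mRNAs, 0.11 for cytosolic ribosomal proteins, -0.027 for Notch pathway and 0.048 for tubulin isotypes. The gene differences turned to -0.18 for DCK, 0.15 for RGS16 and 0.52 for MMP11. In cells called G1, 1453 genes were past 2-fold higher and 1503 genes were past 2-fold lower. Log2 medians were 0.00982 for all genes, 0.63 for retinoid receptors / metabolism and response, -1.23 for axon guidance, -0.65 for noradrenergic identity, -0.37 for p53 targets, -0.69 for ATF4 integrated stress genes, 0.44 for glycolysis and hypoxia, -0.10 for cytosolic ribosomal proteins, -1.37 for other reported doxazosin targets, -0.019 for Notch pathway, 0.29 for interferon response and MHC class I and -0.49 for splicing kinases and nuclear speckle factors. The gene differences turned to -2.48 for BET1, -2.09 for DCK, -0.089 for EFCAB2, -0.36 for HIGD1A, -0.56 for SDHD and 0.13 for FOXO3. Without each gene's highest 5% of cells, 422 genes were past 2-fold higher. Log2 medians were 0.14 for all genes, 0.37 for BCL2 family and caspases and 0.24 for interferon response and MHC class I. Less the median of the GC group, the log2 median was 0.00 for all genes. The cause was not tested, except that the phase and matched-gene settings use fewer cells. The matched-gene cells also lay above the median of detected genes of the 13cRA library and below that of both drugs. In G1-called cells only 18 with 13cRA and 11 with both drugs remained, and these values rest on few cells. No paired analysis was possible because each treatment has 1 sample and no replicate numbers. Depth limits genes near 10 CPM in the 13cRA library, and with 1 culture per treatment a difference between cultures and an effect of doxazosin cannot be told apart.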

Other observations

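Lists not described above had these values for both drugs against 13cRA. Axon guidance genes, which include SLIT ligands and their ROBO receptors, were lower for 9 of 12 measured members with a median of -0.13 log2, which was 0.01 with TMM factors and 0.10 in cells matched for detected genes. Lysosome and autophagy genes were higher for 19 of 31 members with a median of 0.07 log2. Fatty acid synthesis genes were lower for 9 of 15 members with a median of -0.14, which was 0.00 with TMM factors, and its member ACSL4 was among the genes highest with both drugs. ATF4-dependent stress genes, which include PSAT1 and ATF3 on opposite sides, were lower for 9 of 16 members with a median of -0.08 that was 0.06 with TMM factors. Mesenchymal state genes had 3 of 7 members higher with a median of -0.11, which was 0.04 with TMM factors, and 6 interferon and MHC class I genes were evenly split.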
